A study of Mus musculus with 44 samples.

Results

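The clustered Hox genes were followed across fibroblasts sorted from mouse mammary gland and from mammary tumors. Members were taken by symbol (Hoxa to Hoxd followed by a number), which gave 39 of the 55486 genes in the count table. They comprised 11 genes of the HoxA cluster on chromosome 6, 10 of HoxB on chromosome 11, 9 of HoxC on chromosome 15 and 9 of HoxD on chromosome 2. The study holds 44 RNA-seq libraries from 13 transplanted mice. All recipients were female EN1-Cre;mTmG mice, in which cells of the Engrailed-1 (En1) lineage are marked by GFP, and received donor mammary tissue at about 3 weeks of age without clearing of the gland. Control mice (3) received tissue from WapCre-negative Cdh1F/F;PtenF/F donors, WB1P mice (5) tissue from WapCre;Brca1F/F;Trp53F/F donors and WB1P-Myc mice (5) tissue of that genotype with a Cre-activated Myc transgene. Donor tissue can also carry stromal cells, and whether GFP- fibroblasts came from the recipient was not tested. Each control label carries a pair of numbers and was counted as 1 mouse, although pooled animals cannot be told apart from a single one. Tumors were taken at end stage, apart from those of 2 WB1P-Myc mice (replicates 12 and 13) labelled 8x8. EpCAM-/CD49f-/CD31-/CD45- cells were sorted into En1+ (GFP+/CD26-), CD26+ (GFP-/CD26+), double+ and double- populations. Fibroblasts of control tissue are called NFs and those of tumors CAFs. For most comparisons the libraries of a mouse were summed within the CD26- class (En1+ and double-) and the CD26+ class (CD26+ and double+), which gave 3 CD26- NF, 3 CD26+ NF, 10 CD26- CAF and 9 CD26+ CAF samples. WB1P replicate 4 contributed CD26- cells only, from an En1+ library. Other class sums were also a single library of one sorted population. These were double+ for the CD26+ class of WB1P replicate 6 and WB1P-Myc replicate 10, and double- for the CD26- class of WB1P-Myc replicate 9. WB1P-Myc replicate 11 had a double+ and a double- library only.

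Hox proteins are homeodomain transcription factors whose genes lie in clusters, ordered in the direction in which they are expressed along the body axis. Low-numbered groups are expressed anteriorly and high-numbered groups posteriorly and distally, and fibroblasts of adult tissues keep a stable set of active Hox genes that reflects their site of origin. In the mammary gland group 9 genes are needed for development during pregnancy, and Hoxc6 and Hoxc8 take part in mammary gland development and placement. Hox proteins bind short sites with the core TAAT and, with partners of the Pbx family, composite sites of the form TGATNNAT.

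Library depth ranged from 5790599 to 15240328 counts, so that 3 counts correspond to 0.197 to 0.518 CPM (counts-per-million, scaled by the total count of the library). Dpp4, the gene of the sorted surface protein CD26, lay between 0.619 and 17.6 CPM in the CD26- samples and between 222.8 and 845.5 CPM in the CD26+ samples. The summed level of 6 fibroblast markers was 20770 to 52590 CPM in every class. Summed pericyte markers (8 genes) were 1863 to 10790 CPM in CD26- CAFs, 213.8 to 419 in CD26- NFs, 162.6 to 200 in CD26+ NFs and 145.5 to 327 in CD26+ CAFs, so this list separates CD26- CAFs from the other classes. In bulk libraries, fewer cells of one type and less RNA per cell cannot be told apart.

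The promoters of 3 members that differed between CAFs and NFs in both CD26 classes are shown first, because the results below turn on them. Hoxb8 (chr11:96281905-96285315, plus strand) and Hoxd8 (chr2:74704615-74707933, plus strand) were higher in CAFs, and Hoxa5 (chr6:52201754-52204587, minus strand) was lower. The 250 bases before the RefSeq start (GRCm38.p6) cover chr11:96281655-96281904, chr2:74704365-74704614 and chr6:52204588-52204837, are written 5′ to 3′ on the strand of the gene, and carry TAAT and TGATNNAT matches of either strand in capitals.
Hoxb8: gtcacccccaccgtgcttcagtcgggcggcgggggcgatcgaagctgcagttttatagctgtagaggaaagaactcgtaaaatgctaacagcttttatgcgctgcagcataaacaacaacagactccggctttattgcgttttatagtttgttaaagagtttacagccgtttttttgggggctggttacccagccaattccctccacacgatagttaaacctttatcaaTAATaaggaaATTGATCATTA
Hoxd8: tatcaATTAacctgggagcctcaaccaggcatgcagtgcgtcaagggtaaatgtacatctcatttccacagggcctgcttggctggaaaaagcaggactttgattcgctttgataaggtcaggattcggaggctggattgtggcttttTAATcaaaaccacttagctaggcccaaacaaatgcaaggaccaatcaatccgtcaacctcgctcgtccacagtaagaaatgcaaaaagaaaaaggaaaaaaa
Hoxa5: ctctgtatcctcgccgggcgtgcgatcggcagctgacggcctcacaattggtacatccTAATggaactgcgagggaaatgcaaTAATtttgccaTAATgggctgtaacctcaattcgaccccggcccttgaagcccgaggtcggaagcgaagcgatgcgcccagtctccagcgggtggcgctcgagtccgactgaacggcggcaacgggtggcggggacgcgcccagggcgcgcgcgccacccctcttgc
The Hoxb8 window held 1 TGATNNAT and 2 TAAT matches, all within the last bases before the start. The TGATNNAT match and the last TAAT match lie on the reverse strand and overlap. Hoxd8 held 2 and Hoxa5 3 TAAT matches and neither held TGATNNAT. Of 32851 promoter windows of this length, 54.9% held TAAT and 7.68% held TGATNNAT. Among the 24 windows found for 22 of the Hox genes, 18 held TAAT and 4 held TGATNNAT. A match describes the letters of the window and does not show that a factor binds there.

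The fibroblasts expressed Hox genes from anterior to posterior groups, led by the HoxC cluster. Of the 39 genes, 26 passed the filter on low counts: 9 of 11 in HoxA, 8 of 10 in HoxB, 7 of 9 in HoxC and 2 of 9 in HoxD. The other 13 had between 0 and 95 counts over all libraries, and 3 of them (Hoxa13, Hoxb13 and Hoxd12) had none. Per kilobase of merged exons, the highest levels averaged over the 6 groups of treatment and CD26 class were 12.3 CPM per kb for Hoxc10, 9.67 for Hoxc6, 6.63 for Hoxc8 and 4.33 for Hoxd8. With the length of the longest transcript, Hoxc6 (14.7 CPM per kb) came before Hoxc10 (12.3), so the order of these 2 genes depends on the length used. Hoxc4 (2.96 CPM per kb), Hoxb2 (2.57), Hoxc9 (2.52) and Hoxa10 (2.46) followed closely together.

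**Figure D1:**
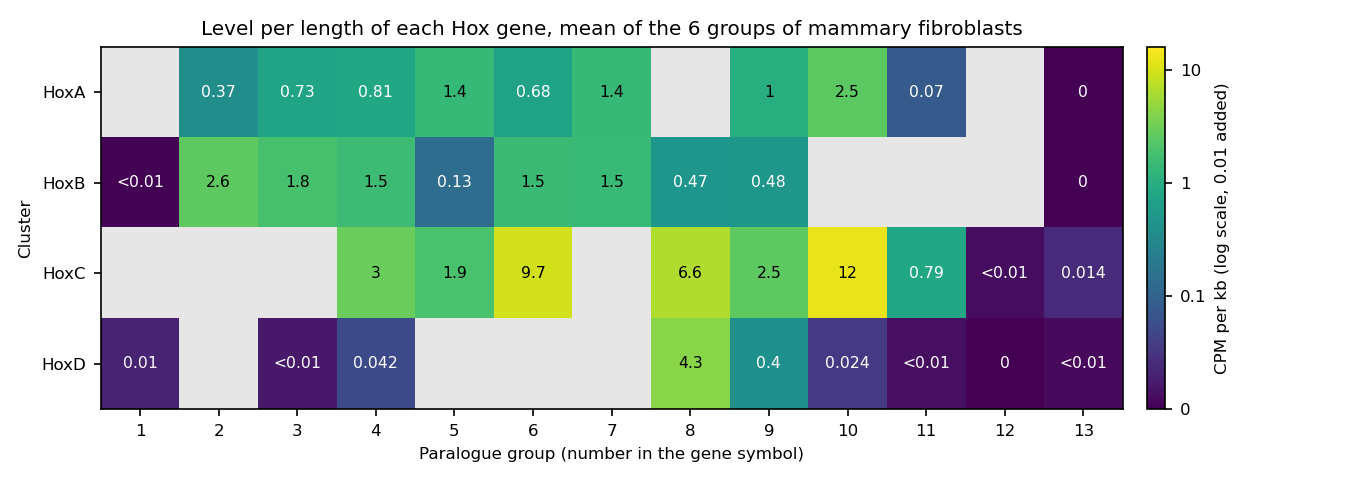
Level per length of the Hox genes, with clusters as rows and paralogue groups as columns; each cell gives the mean of the 6 groups in CPM per kilobase of exon, the color scale is logarithmic, and grey cells are positions with no gene in the mouse or with a gene not shown. Levels are highest in HoxC from group 4 to group 10, and HoxD is near 0 apart from Hoxd8 and Hoxd9.

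HoxD differed from the other clusters in that only Hoxd8 and Hoxd9 were measurable at this depth. Hoxd1, Hoxd3 and Hoxd4 at the anterior end had 12, 16 and 73 counts in all, and Hoxd10, Hoxd11, Hoxd12 and Hoxd13 at the posterior end had 25, 9, 0 and 3. Hoxd3 and Hoxd4 share 62.3% and 52.3% of their exon bases with each other and with a further transcript, so their few counts cannot be assigned with certainty. In the groups from 11 to 13, which act in distal limb and in the genital and caudal region, Hoxc11 alone passed the filter in the summed samples.

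As a share of the summed Hox CPM, HoxC genes made up 60.0% ± 2.92 of the CD26- NF and 60.2% ± 3.68 of the CD26+ NF samples (SD over 3 mice each). Their share was 50.4% ± 3.16 over the 10 CD26- CAF samples and 58.2% ± 4.62 over the 9 CD26+ CAF samples. HoxB genes gave 12.96% ± 0.689, 14.8% ± 0.954, 23.4% ± 4.64 and 16.1% ± 3.93 in the same order. The lowest HoxB share in a CD26- CAF sample was 15.8%, above the 12.2% to 13.5% of CD26- NFs. The HoxA share was between 16.8% and 19.2% on average in all 4 classes. In CPM, the HoxC sum averaged 87.8, 77.2, 90.4 and 87.6 in the same order of classes. The HoxB sum averaged 19.3, 19.3, 43.0 and 24.6 CPM. The lower HoxC share of CD26- CAFs thus stood beside a similar HoxC sum and a higher HoxB sum.

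Mice differed in the summed level of all Hox genes, and did so in both CD26 classes. Control replicate 1 had 102.4 CPM in CD26- NFs and 85.3 in CD26+ NFs, against 160.2 to 180.0 and 134.1 to 169.5 in the other 2 control mice. WB1P replicate 5 was likewise the lowest tumor mouse in both classes, with 114.2 and 78.0 CPM, against 156.0 to 242.2 and 133.6 to 197.4 in the other tumor mice. The low totals of these mice were thus present in both sorted classes.

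**Figure D2:**
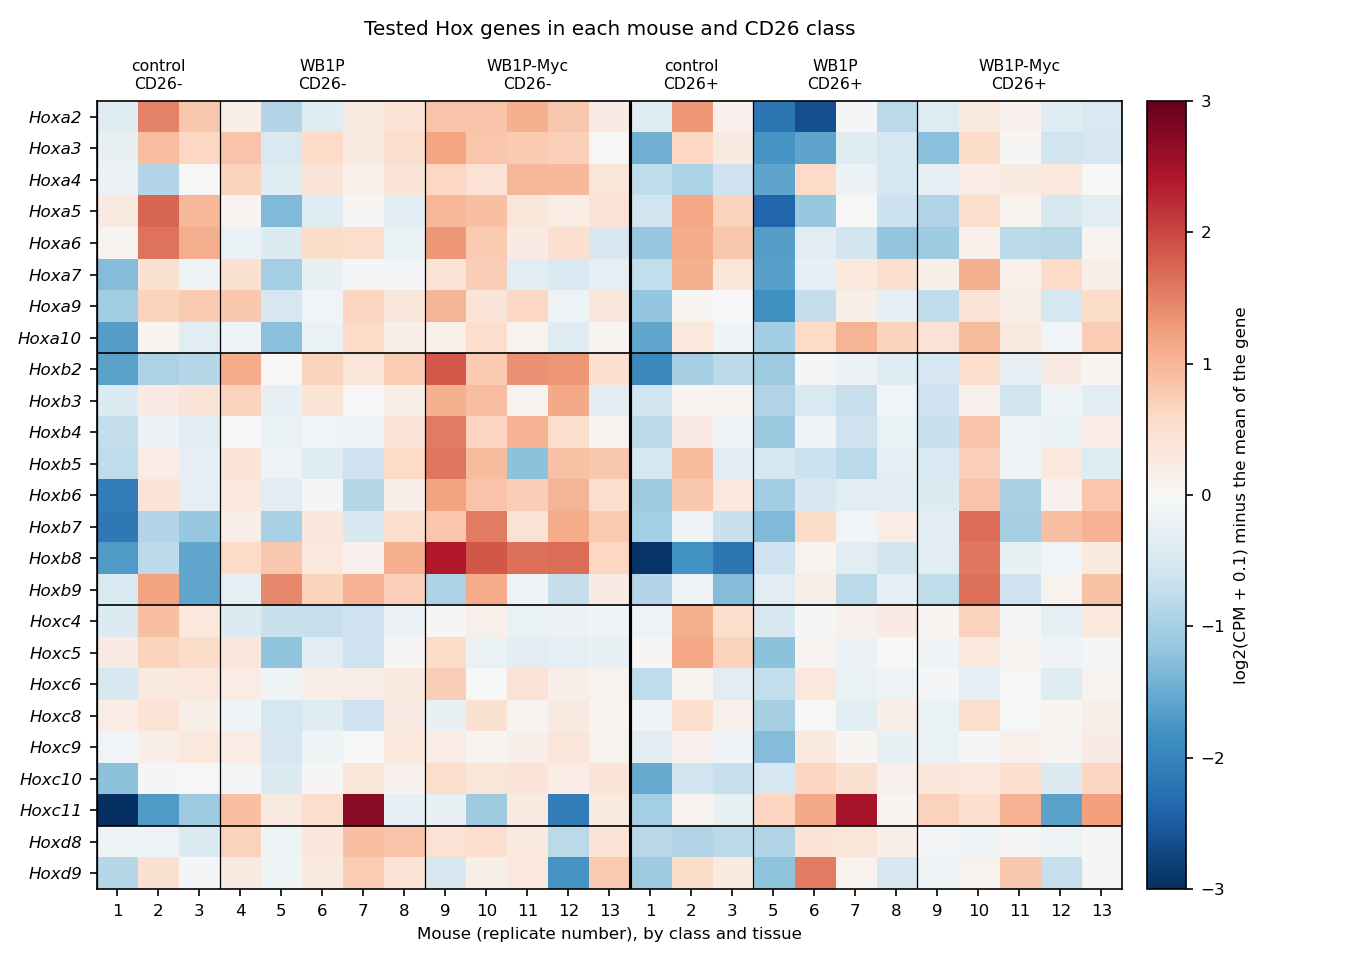
Tested Hox genes (rows; 25 of 26 shown) in each mouse (columns, numbered by replicate and ordered by CD26 class and treatment); color is log2(CPM + 0.1) minus the mean of the gene. Hoxb8 is lower in every control sample than in every CAF sample of its class, and control replicate 1 and WB1P replicate 5 are low for many genes.

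The first question was whether the Hox profile of a CD26 class differs between control tissue and tumor. In CD26- CAFs against CD26- NFs, 11 of 26 tested members had an adjusted p under 0.05 (quasi-likelihood test of edgeR): 8 were higher in CAFs and 3 lower. Over all 16601 genes tested 41.3% were called (20.4% higher and 21% lower), so the share of Hox genes called is near the background. The median log2 fold change of the members was 0.37, beside 0.01 over all genes. In CD26+ CAFs against CD26+ NFs, 8 members differed, 5 higher and 3 lower, where 41.2% of all genes were called (20.1% higher and 21.1% lower). The median there was 0.12, beside a median of all genes that rounds to 0.00 (-0.00247). Both medians depended on single mice. The CD26+ median was -0.13 without control replicate 1, with 12 of 27 members above 0, and -0.02 without WB1P replicate 6. The CD26- median was 0.16 without control replicate 1 and 0.70 without control replicate 2.

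A log2 fold change beyond 2 in either direction, with an adjusted p under 0.05, was passed by 3 members (Hoxb8, Hoxc11 and Hoxb2) in CD26- cells, where 11.3% of all genes passed it, and by Hoxb8 alone of the members in CD26+ cells, where 8% did. Of the 11 and 8 members called, 7 were called in both classes and moved the same way: Hoxb8, Hoxb2, Hoxc10, Hoxd8 and Hoxa4 higher, Hoxa5 and Hoxc5 lower. The classes come from the same mice and are not independent, and the share of all genes called in both was not counted. The 7 are therefore a description of these genes.

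Hoxb8, which patterns the thoracic to lumbar axis and is also known as a regulator of blood progenitor growth, had the largest log2 fold change of the members in both classes. Its level in CD26- NFs was 0.225, 0.513 and 0.256 CPM (6, 13 and 7 counts) in replicates 1 to 3, and in CD26- CAFs it had a lowest value of 1.05, a median of 1.95 and a highest value of 5.46 CPM. In CD26+ NFs it was 0.0384, 0.199 and 0.136 CPM (1, 5 and 4 counts), and in CD26+ CAFs 0.583 at the lowest, 0.801 at the median and 3.04 at the highest. Every CAF sample lay above every NF sample of its class. The log2 fold change was 2.83 ± 0.47 (SE) in CD26- cells (edgeR, adjusted p = 7.30e-05) and 3.04 ± 0.52 in CD26+ cells (edgeR, adjusted p = 0.000145), and rests on few counts in NFs.

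Hoxb2, a gene of hindbrain segments and the neural crest, was also called in both classes. CD26- NFs had 2.59, 4.11 and 4.43 CPM, and CD26- CAFs had 7.97 at the lowest, 13.9 at the median and 29.2 at the highest, with no overlap. CD26+ NFs had 2.03, 3.97 and 4.64 CPM and CD26+ CAFs 3.81, 7.14 and 11.5 as lowest, median and highest value, where 1 CAF sample (WB1P replicate 5) lay within the NF range. The log2 fold change was 2.12 ± 0.30 in CD26- cells (edgeR, adjusted p = 9.61e-06) and 1.15 ± 0.28 in CD26+ cells (edgeR, adjusted p = 0.00284). An antisense transcript, Hoxb3os, covers 27.3% of its exon bases, and since the strand setting of the counting is not given in the sources used here, their reads may not be told apart.

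Pericyte markers were high in the same CD26- CAFs, and the sample with the highest pericyte sum, WB1P-Myc replicate 9 (10790 CPM), also had the highest Hoxb2, Hoxb4 and Hoxb8 of all samples (29.2, 11.3 and 5.46 CPM). In CD26+ CAFs the pericyte sum was 145.5 to 327 CPM against 162.6 to 200 in CD26+ NFs. Hoxb2 and Hoxb8 were higher there too, Hoxb8 by a similar fold and Hoxb2 by a smaller one. Without WB1P-Myc replicate 9, Hoxb2 and Hoxb8 kept their calls in both comparisons. The remaining CD26- CAF samples still had pericyte sums of 1863 to 5412 CPM, so leaving out this mouse does not remove pericyte RNA. The part of pericyte RNA in the CD26- values was not tested.

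Hoxb7, Hoxb4 and Hoxc11 were called in CD26- CAFs and missed the threshold in CD26+ CAFs. Hoxb7, a central HoxB gene of the thoracic region, had 0.375, 1.03 and 0.841 CPM in CD26- NFs and 0.956, 2.77 and 6.08 as lowest, median and highest value in CD26- CAFs. Only the lowest CAF sample (WB1P replicate 5) lay within the NF range. The log2 fold change was 1.99 ± 0.50 (edgeR, adjusted p = 0.00299) in CD26- cells and 1.06 ± 0.47 (edgeR, adjusted p = 0.074) in CD26+ cells. In CD26+ cells Hoxb7 was called by DESeq2, with single libraries as units, without WB1P replicate 5 and without WB1P-Myc replicate 11. The run on single libraries counts libraries of the same mouse and class as separate samples, although they are not independent. The difference between these changes was not called (0 of 26 members in the interaction test).

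Hoxb4, known for its role in the cervical axis and in blood stem cell growth, averaged 2.87 ± 0.566 CPM over 3 CD26- NF samples and 5.38 ± 2.55 over 10 CD26- CAF samples (SD). It rose by 0.89 ± 0.28 on the log2 scale (edgeR, adjusted p = 0.0151), and the call was lost without control replicate 1 or 3. In CD26+ cells its means were 3.39 ± 1.17 CPM in NFs (n = 3) and 3.47 ± 1.51 in CAFs (n = 9). Hoxa4, its HoxA paralogue, rose by 0.91 ± 0.32 in CD26- and by 0.85 ± 0.33 in CD26+ cells on the log2 scale (edgeR, adjusted p = 0.0258 and 0.0428). The CD26- call was lost without control replicate 2, the CD26+ call without any 1 of the 3 control mice or of 6 tumor mice, and both without the mice labelled 8x8.

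Hoxc10 and Hoxd8, both among the 4 genes of highest level per length, also rose. Hoxc10, a posterior gene of the lumbar region and hindlimb, had 8.02, 15.3 and 14.3 CPM in CD26+ NFs, and 16.3, 29.0 and 36.2 as lowest, median and highest value in CD26+ CAFs, with no overlap. In CD26- cells NFs had 9.78, 22.5 and 22.8 CPM and CAFs 17.4, 28.2 and 33.0, and the ranges overlapped. The log2 fold change was 1.29 ± 0.24 in CD26+ (edgeR, adjusted p = 0.000339) and 0.60 ± 0.23 in CD26- cells (edgeR, adjusted p = 0.0395), and the CD26- call was lost without control replicate 1 and without any 1 of 5 tumor mice (WB1P replicates 6, 7 and 8, WB1P-Myc replicates 9 and 10).

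Hoxd8, a thoracic gene and the most abundant HoxD member, had 6.49, 6.15 and 6.65 CPM in CD26+ NFs, where the 3 mice were close together. CD26+ CAFs had 6.14 at the lowest, 11.9 at the median and 15.5 at the highest, and the lowest one (WB1P replicate 5) was the only one not above all NFs. In CD26- cells NFs had 10.6, 10.4 and 8.74 CPM and CAFs 6.61, 15.6 and 21.8. WB1P-Myc replicate 12 gave the low value, under all NFs, and the other 9 CAF samples were above all NFs. The log2 fold change was 1.00 ± 0.24 in CD26+ (edgeR, adjusted p = 0.00228) and 0.68 ± 0.23 in CD26- cells (edgeR, adjusted p = 0.0208), where the call was lost without control replicate 2 or 3.

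The members called lower in CAFs were Hoxa5, Hoxc5, Hoxc4 and Hoxa6. Hoxa5, a gene needed for lung and trachea development and for mammary epithelial function, had 2.47, 6.99 and 4.13 CPM in CD26- NFs and 0.757, 2.28 and 4.18 as lowest, median and highest value in CD26- CAFs. In CD26+ NFs it had 1.31, 4.68 and 3.32 CPM, and in CD26+ CAFs 0.311, 1.41 and 2.97. The groups overlapped in both classes, and control replicate 1 was the lowest NF sample. The log2 fold change was -0.94 ± 0.37 in CD26- (edgeR, adjusted p = 0.0457) and -0.98 ± 0.39 in CD26+ cells (edgeR, adjusted p = 0.0455), and both calls were lost without control replicate 2 or 3 and without several single tumor mice.

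Hoxc5, the HoxC member of the same paralogue group, had 6.18, 8.29 and 7.65 CPM in CD26- NFs and 2.19, 4.39 and 7.84 as lowest, median and highest value in CD26- CAFs. CD26+ NFs had 5.37, 11.8 and 8.44 CPM and CD26+ CAFs 2.18, 5.08 and 6.53. All 3 control mice were above the CAF median of their class, but the ranges overlapped. It fell by 0.62 ± 0.25 in CD26- and by 0.69 ± 0.25 in CD26+ cells on the log2 scale (edgeR, adjusted p = 0.0484 and 0.0297), and both calls were lost without control replicate 2 or 3, the CD26- call also without control replicate 1 and without several single tumor mice. Hoxc5 shares 5.37% of its exon bases with Hoxc10.

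Hoxc4, an anterior HoxC gene, had 5.21, 12.95 and 8.63 CPM in CD26- NFs and 4.27, 6.09 and 7.77 in CD26- CAFs, a fall by 0.58 ± 0.22 on the log2 scale (edgeR, adjusted p = 0.0366) whose call was lost without control replicate 2 or 3 and without several single tumor mice. Hoxa6, a thoracic gene, fell by 1.38 ± 0.48 in CD26+ CAFs (edgeR, adjusted p = 0.0268), from a mean of 0.715 ± 0.50 CPM in NFs (n = 3) to 0.273 ± 0.152 in CAFs (n = 9), and also lost its call without either of these mice.

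**Figure D3:**
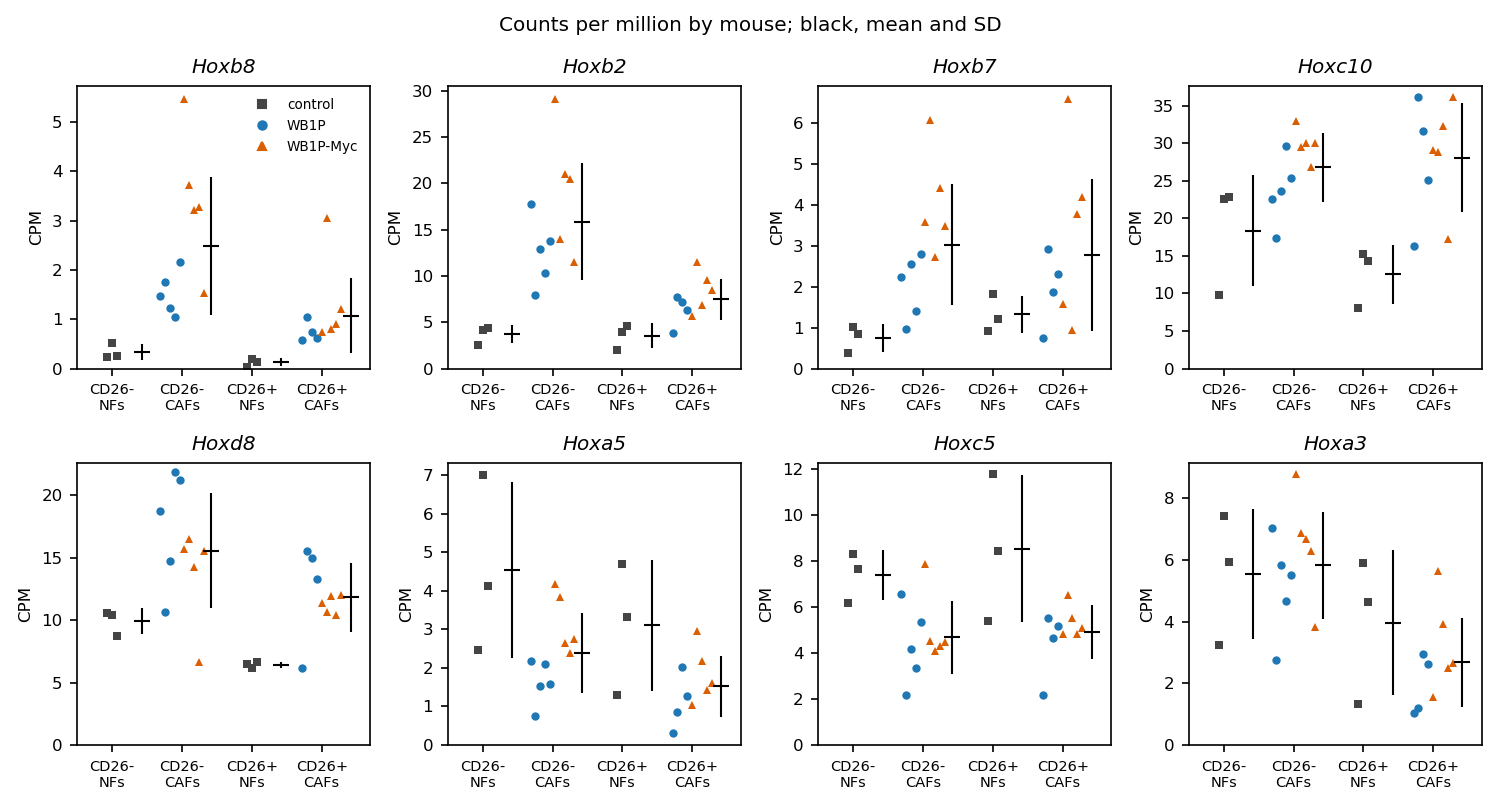
CPM of 8 Hox genes in each mouse (squares, control; circles, WB1P; triangles, WB1P-Myc), with CD26- and CD26+ NFs and CAFs along the x axis and the mean and SD in black. All CAF points of Hoxb8 lie above the NF points of their class, while those of Hoxa5 and Hoxc5 overlap with them.

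Hoxc6 and Hoxc8, the mammary HoxC genes that rank next to Hoxc10 in level per length, were not called. Hoxc6 averaged 24.4 ± 6.86 CPM over the 3 CD26- NF and 27.3 ± 4.73 over the 10 CD26- CAF samples (SD), with log2 fold changes of 0.22 ± 0.17 in CD26- and 0.29 ± 0.18 in CD26+ cells (edgeR, adjusted p = 0.324 and 0.192). Hoxc8 had 21.8 ± 1.90 CPM in CD26- NFs and 17.6 ± 4.30 in CD26- CAFs, and the log2 fold change was -0.26 ± 0.19 (edgeR, adjusted p = 0.266). Hoxa10, the most abundant HoxA gene per length, had a log2 fold change of 0.57 ± 0.39 in CD26- and 0.90 ± 0.40 in CD26+ cells (edgeR, adjusted p = 0.243 and 0.0742).

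Both counts of called members depended on the control mice. In CD26- cells, 7 members were called without control replicate 1 and 6 without replicate 2 or 3, 7 without WB1P replicate 6, and 7 without the 2 mice labelled 8x8. In CD26+ cells, 5 were called without control replicate 2, 4 without replicate 3 and 5 without the mice labelled 8x8. Hoxb2, Hoxb7 and Hoxb8 in CD26- cells and Hoxb2, Hoxb8, Hoxc10 and Hoxd8 in CD26+ cells kept their calls in every alternative run. Endothelial markers (6 genes) also differed between CD26+ NFs (186.8 to 546.8 CPM) and CD26+ CAFs (69.3 to 173.5 CPM), and their part in the values was not tested.

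The second question was whether the CD26 classes differ in their Hox profile within tumors. In CD26+ against CD26- CAFs, 9 of 26 members were called, where 39% of all genes were (19.1% higher and 19.9% lower). Hoxc4 was higher in CD26+ CAFs, and the 8 lower members included Hoxa2, Hoxa3, Hoxa6, Hoxb2, Hoxb3, Hoxb4 and Hoxb8. The median of the members was -0.36, beside 0.01 over all genes, and no member passed a log2 fold change of 2 in either direction, which 7.61% of all genes did. With the mouse as a block, which uses the pairing of both classes within a mouse, 15 members were called (4 higher and 11 lower). The share of all genes called with the block was not counted, so these 15 have no background beside them. Leaving out WB1P-Myc replicate 9 gave 5 (Hoxa3, Hoxb2, Hoxb3, Hoxb8 and Hoxc4).

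The lower genes are anterior and central members of HoxA and HoxB, as are most tested members of these clusters. Other anterior and central members, such as Hoxa7 and Hoxb7, were not called. Hoxb2 was lower in CD26+ than in CD26- cells of the same tumor in 9 of 9 mice, with the values given above, and differed by -0.96 ± 0.18 on the log2 scale (edgeR, adjusted p = 0.000229). Hoxb8 was lower in 9 of 9 mice, with a log2 difference of -1.10 ± 0.28 (edgeR, adjusted p = 0.00337). In each case the ranges of the 2 classes overlapped although every mouse had the same order.

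Hoxa3, needed for thymus, parathyroid and neck structures, had 2.75, 6.07 and 8.78 CPM as lowest, median and highest value in CD26- CAFs and 1.05, 2.64 and 5.64 in CD26+ CAFs. It was lower in CD26+ cells in 9 of 9 mice, with a log2 difference of -1.05 ± 0.27 (edgeR, adjusted p = 0.00347). Hoxb3, its HoxB paralogue, had 5.91, 9.19 and 16.4 CPM in CD26- CAFs and 3.92, 5.35 and 8.16 in CD26+ CAFs, with a log2 difference of -0.73 ± 0.19 (edgeR, adjusted p = 0.00356) and the same order in 9 of 9 mice. Antisense transcripts cover 25.4% of the exon bases of Hoxa3 and 52.9% of those of Hoxb3, so part of these counts is uncertain.

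Hoxc4 had 4.27, 6.09 and 7.77 CPM as lowest, median and highest value in CD26- CAFs and 4.93, 7.29 and 11.2 in CD26+ CAFs. It was higher in CD26+ cells in 8 of 9 mice, with a log2 difference of 0.50 ± 0.16 (edgeR, adjusted p = 0.0154). Hoxa10, a posterior gene known for its role in the uterus and hindlimb, had 3.07, 7.91 and 11.2 CPM in CD26- CAFs and 3.57, 11.4 and 15.3 in CD26+ CAFs. It was higher in CD26+ cells in 9 of 9 mice and differed by 0.60 ± 0.26 on the log2 scale. The adjusted p was 0.0744 (edgeR), and 6.63e-05 with the mouse as a block (edgeR). It was also called without WB1P replicate 5, and with single libraries as units, where libraries of a mouse are not independent. Hoxc11 was higher in CD26+ cells in 8 of 9 mice and, of the alternatives run, was called with the block alone (log2 difference 0.75 ± 0.49 without it; edgeR, adjusted p = 0.234 and 0.00926 with the block).

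**Figure D4:**
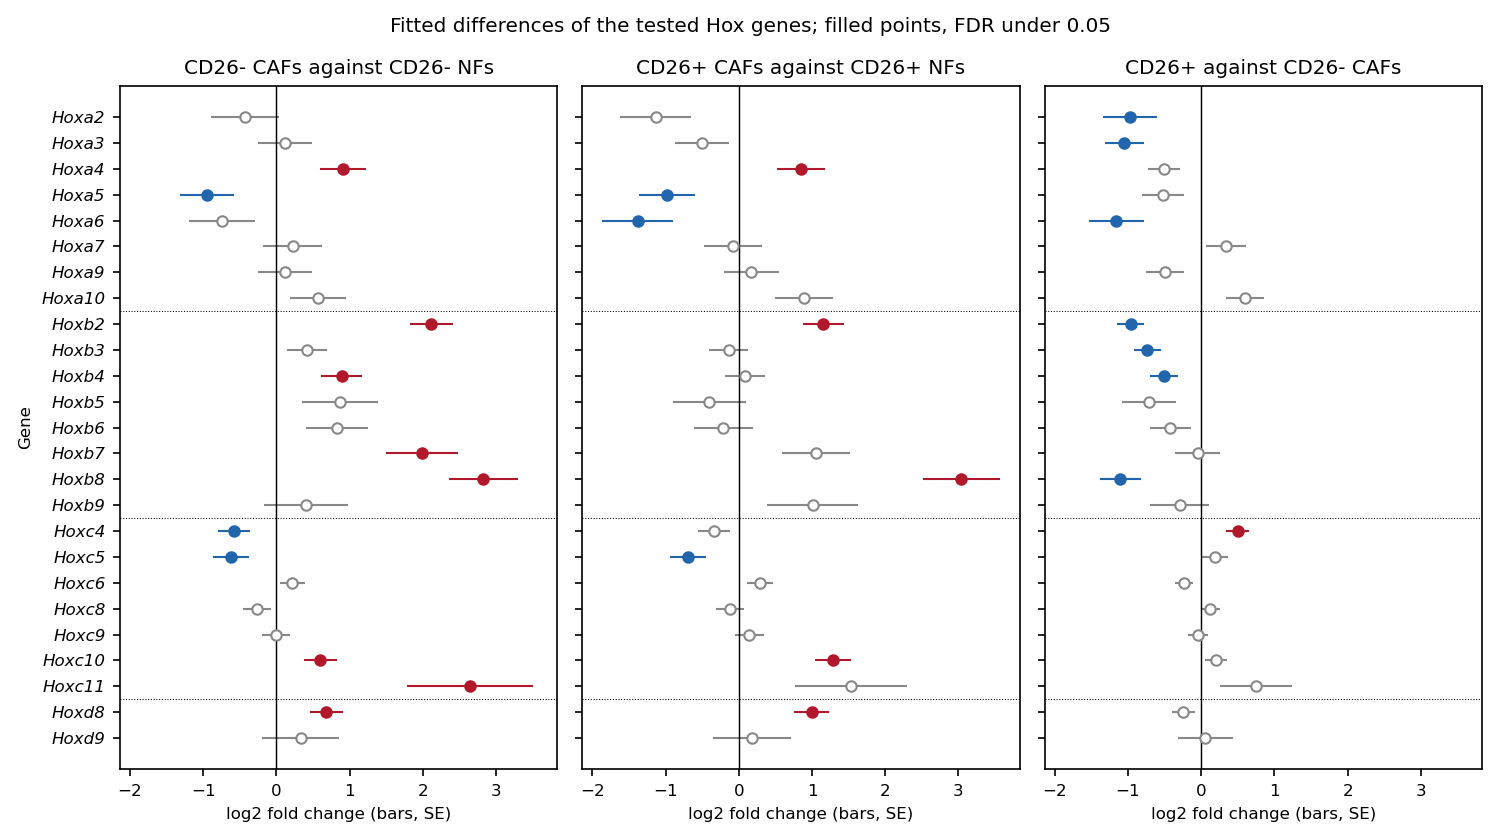
Log2 fold change (points) and standard error (bars) of 25 of the 26 tested Hox genes in 3 comparisons; filled red points were higher and filled blue points lower at an adjusted p under 0.05 in edgeR, and open points were not called. Hoxb8 and Hoxb2 stand to the right in both CAF against NF comparisons and to the left in CD26+ against CD26- CAFs.

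CD26- CAFs are also the class with the high pericyte sum, and the pericyte list was lower in CD26+ than in CD26- CAFs of the same tumor in 9 of 9 mice. The calls of Hoxa2, Hoxa6 and Hoxb4 were lost without WB1P-Myc replicate 9, which had the highest pericyte sum, and all but that of Hoxa6 also without other single mice, while Hoxa3, Hoxb2, Hoxb3, Hoxb8 and Hoxc4 kept theirs in every alternative run. Skeletal muscle markers (6 genes) summed to 60.9 to 242.5 CPM in CD26- CAFs and 0.535 to 4.32 CPM in CD26+ CAFs, and adipocyte markers (4 genes) to 0.190 to 11.8 and 0 to 0.965 CPM. Summed endothelial markers (6 genes) were 20.2 to 91.6 CPM in CD26- and 69.3 to 173.5 CPM in CD26+ CAFs. By gene the list was mixed, with 2 higher and 3 lower in CD26+ CAFs and a median log2 fold change of -0.53. The part of RNA from these cell types and from pericytes in the differences was not tested.

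In NFs no member differed between the CD26 classes (edgeR, 0 of 26, where 4.17% of all genes were called, 2.67% higher and 1.49% lower). At an unadjusted p under 0.05 there was 1 member, Hoxb8 (log2 difference -1.32 ± 0.59, lower in 3 of 3 mice; edgeR, adjusted p = 0.295), DESeq2 called 0, and edgeR with the mouse as a block called 1, Hoxc11 (higher in 3 of 3 mice; log2 difference 1.86 ± 0.95 without the block; edgeR, adjusted p = 0.403 and 0.0137 with the block). Hoxb2 averaged 3.71 ± 0.984 CPM in CD26- and 3.55 ± 1.36 CPM in CD26+ NFs. Among tested members, Hoxd8 and Hoxb8 were lower and Hoxc11 higher in CD26+ than in CD26- NFs with no overlap, a description of 3 mice. How many of all genes separate in this way was not counted.

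Whether the CD26 difference itself differs between CAFs and NFs was tested as an interaction. No member was called (edgeR, 0 of 26, where 2.11% of all genes were called, 0.723% in the positive direction, and 1.3% also had an absolute value over 2), 3 of 26 members had an unadjusted p under 0.05, as did 13.1% of all genes, and DESeq2 called 0. These were Hoxb2 (difference of log2 differences -0.96 ± 0.37, edgeR, adjusted p = 0.221), Hoxc10 (0.69 ± 0.31, adjusted p = 0.342) and Hoxb4 (-0.80 ± 0.38, adjusted p = 0.372). With single libraries as units, which counts libraries of a mouse as separate samples, Hoxb2 alone was called.

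The third comparison was between the tumor models. No member differed between WB1P-Myc and WB1P in CD26- CAFs (edgeR, 0 of 26, where 0.512% of all genes were called). Here 7 of 26 members had an unadjusted p under 0.05, as did 14.5% of all genes, and DESeq2 called 0. Among them were Hoxb4 (log2 fold change 0.70 ± 0.26) and Hoxb8 (1.01 ± 0.37), higher in WB1P-Myc, and Hoxc11 (-1.87 ± 0.69) and Hoxd8 (-0.49 ± 0.21), lower (edgeR, adjusted p = 0.210, 0.212, 0.217 and 0.283). In CD26+ CAFs 0 of 26 members and 0% of all genes were called by edgeR, 0 members had an unadjusted p under 0.05, and DESeq2 called 0.

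More members lay above than below 0 in both classes, 22 of 26 in CD26- and 21 of 26 in CD26+ CAFs, beside 53.9% and 48.2% of all genes. Their median log2 fold change was 0.28 and 0.46. Without WB1P replicate 5, the tumor mouse of low Hox level, it was 0.22 and 0.22, with 16 and 19 members above 0. The CD26 difference did not differ between the models for any member (edgeR, 0 of 26, where 0% of all genes were called; 0 at an unadjusted p under 0.05, and 0 by DESeq2).

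The En1 lineage was compared within each CD26 class over single libraries, where 27 members were tested because Hoxa11 passed the filter. In CAFs, log2 fold changes of En1+ against double- cells ranged from -0.25 to 0.31 and those of double+ against CD26+ cells from -0.68 to 0.65. No member was called in either comparison (edgeR, 0 of 27, where 0% and 0.0193% of all genes were called). The count at an unadjusted p under 0.05 was 0 in both, and DESeq2 called 0 in both.

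In NFs the range was -3.98 to 0.96 for En1+ against double- cells and -1.20 to 0.90 for double+ against CD26+ cells. No member was called (edgeR, 0 of 27, where 0.00642% of all genes were called in each; 2 and 0 at an unadjusted p under 0.05, and 0 by DESeq2 in each). Hoxb9, a group 9 gene of the mammary and thoracic region, gave the value at the low end. It had 0.207, 0.0871 and 0.0773 CPM (3, 1 and 1 counts) in the En1+ libraries of control replicates 1 to 3, and 1.39, 4.70 and 0.486 CPM (17, 65 and 7 counts) in their double- libraries.

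En1+ cells thus had less Hoxb9 than double- cells in 3 of 3 control mice, with a log2 fold change of -3.98 ± 0.93 that was called with the mouse as a block (edgeR, adjusted p = 0.0102) and not without it (edgeR, adjusted p = 0.399). Double+ cells also had less than CD26+ cells in 3 of 3 control mice and in 6 of 6 tumor mice, whereas En1+ cells had less than double- cells in 4 of 7 tumor mice. Hoxb8, the other of the 2 members, had a log2 fold change of -1.91 ± 0.87 in En1+ against double- NFs (edgeR, unadjusted p = 0.0342) and was lower in 3 of 3 mice. Such orders were not particular to Hoxb9. Hoxb6 was lower in the same 3 of 3, 3 of 3 and 6 of 6 mice. Hoxa9, Hoxa10, Hoxb2, Hoxb3, Hoxb4 and Hoxd8 were also lower in En1+ NFs of 3 of 3 mice, and Hoxa3 and Hoxc8 higher. In double+ CAFs, Hoxb3 was lower and Hoxa7, Hoxa9 and Hoxd8 higher in 6 of 6 mice. The share of all genes with such orders was not counted.

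Hoxc11, the most posterior gene that passed the filter, was decided by single mice. CD26- NFs had 0, 0.277 and 0.476 CPM (0, 7 and 13 counts) and CD26- CAFs had 0.190 at the lowest, 1.36 at the median and 7.82 at the highest, with a fitted log2 fold change of 2.64 ± 0.86 (edgeR, adjusted p = 0.0181). The ranges overlapped, and the call was lost without control replicate 1 or 2. CD26+ NFs had 0.499, 1.19 and 0.949 CPM and CD26+ CAFs 0.300, 1.88 and 6.68, with a log2 fold change of 1.54 ± 0.76 (edgeR, adjusted p = 0.111).

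The highest values came from 1 tumor, WB1P replicate 7, which was singled out after its values were seen. Its En1+, double-, CD26+ and double+ libraries had 9.28, 6.25, 6.78 and 6.58 CPM of Hoxc11, and no library of any other mouse exceeded 2.83 CPM. Its Hoxa11, the HoxA paralogue that is otherwise near the detection limit, was 1.27, 0.272, 0.802 and 2.06 CPM (15, 3, 11 and 30 counts) in the same libraries, against at most 0.394 CPM in the other mice. An antisense transcript, Hoxa11os, covers 35.0% of the exon bases of Hoxa11, so reads of these 2 genes may not be told apart. High Hoxc11 was thus shared by all 4 sorted populations of this mouse. WB1P-Myc replicate 12 lay at the other end, with 0.144 to 0.326 CPM of Hoxc11 in its 4 libraries.

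**Figure D5:**
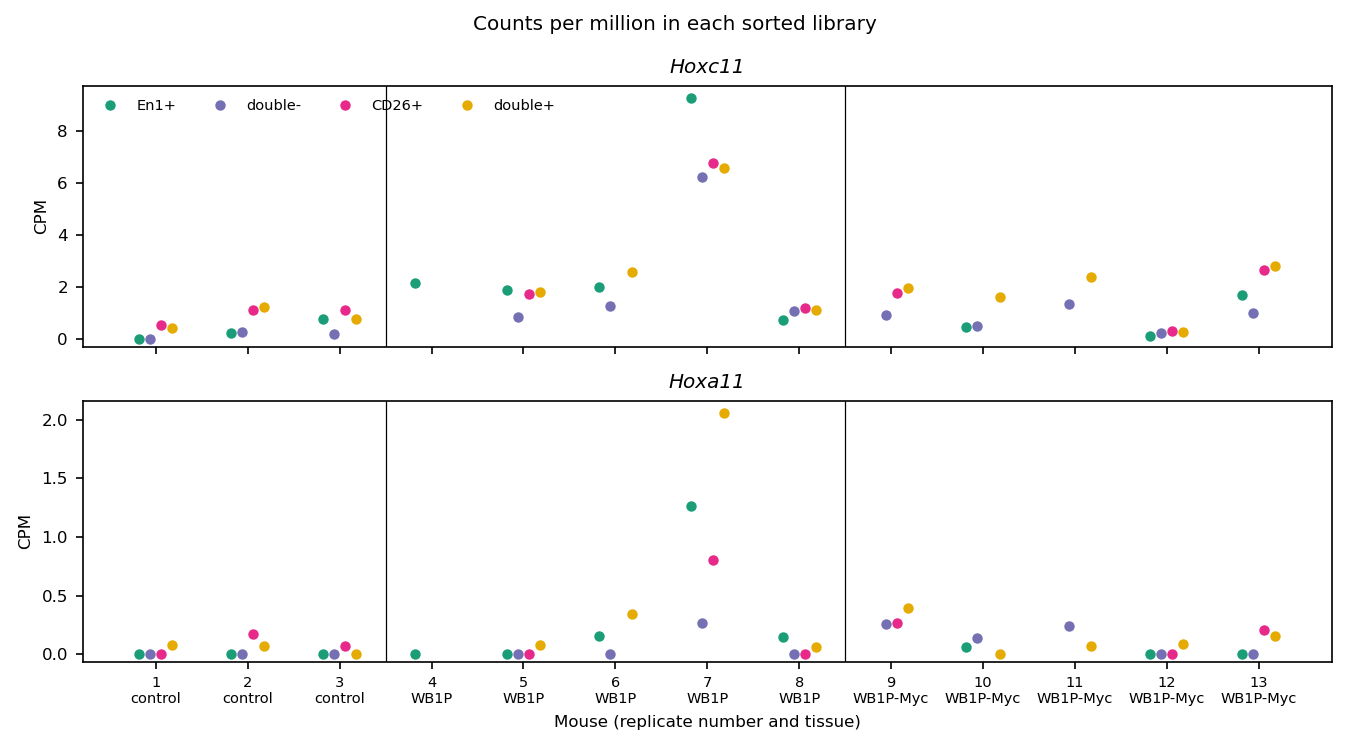
CPM of Hoxc11 (top) and Hoxa11 (bottom) in each sorted library, with mice along the x axis (replicate number and treatment) and the sorted population as color. The 4 libraries of WB1P replicate 7 lie between 6.25 and 9.28 CPM for Hoxc11, above those of all other mice.

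Partners of Hox proteins were measured beside them. Of 9 TALE homeodomain genes (Pbx, Meis and Pknox families), which bind DNA together with Hox proteins, 1 rose and 3 fell in CD26- CAFs against NFs, and 1 rose and 2 fell in CD26+ CAFs, where 41.3% and 41.2% of all genes were called. Pbx3 rose in both, from 7.58 ± 0.531 to 19.5 ± 3.16 CPM in CD26- cells (SD over 3 and 10 samples), or by 1.42 ± 0.14 on the log2 scale (edgeR, adjusted p = 7.50e-08). In CD26+ cells it rose by 0.82 ± 0.13 (edgeR, adjusted p = 7.12e-05). Meis2 and Pknox1 fell in both classes.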

How the data were processed

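RNA-seq of 44 sorted fibroblast libraries was used as deposited whole-number counts per gene. Per the labels, RNA with a RIN above 7 went into stranded mRNA libraries, sequenced paired-end. The submitters' processing notes name HISAT2 2.2.1 and GRCm38. The counter, annotation release and strand setting are not given in the sources used here. The members and gene lists were chosen with earlier results of these data known. Counts of a mouse were summed per CD26 class (25 samples). Genes were filtered with filterByExpr and tested with edgeR 4.0.16 (TMM, quasi-likelihood, all 6 groups, 16601 genes, Benjamini-Hochberg over all of them, called under 0.05); the En1 comparisons used the 44 libraries in 12 groups (15584 genes). Standard errors are the absolute log2 fold change over the root of F, and CPM use total counts. DESeq2 1.42.0, its size factors, no filter, other samples and the mouse as a block were alternatives; fits were tested on simulated data. Classes of a mouse pair by its label (correlation of deviations 0.237 to 0.668 over 12 pairs). Of the 55486 genes, 55140 identifiers are in GENCODE M21, and all 39 members have its coordinates. Values in every mouse were given for at most 4 called members per direction and comparison, those of largest log2 fold change whose higher group averaged 1 CPM or more, and for the member of each cluster with the highest level per length; others were named with fewer values. Libraries of a mouse come from 1 animal or pool, and counting error alone sets the limits given as counts. For 1 member and 1 gene of the lists the values are not reported here; both are included in the counts and medians.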

Additional observations from a re-analysis of the deposited data

Results flagged for a closer look

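In 104 groups of 4 or 5 tumor mice (26 genes, 2 models and 2 CD26 classes), 5 held a sample far from the others by Dixon's test, where chance gives about 5.2. Hoxc11 was 7.82 CPM in CD26- CAFs of WB1P replicate 7, with the next value at 2.17. Hoxb8 was 3.04 CPM in CD26+ CAFs of WB1P-Myc replicate 10, with the next value at 1.203. Hoxc5 was 7.84 CPM in CD26- CAFs of WB1P-Myc replicate 9, with the next value at 4.50. The remaining samples were low. Hoxc6 was 21.0 CPM in CD26- CAFs of WB1P replicate 5 (next 26.3), and Hoxd8 was 6.61 CPM in CD26- CAFs of WB1P-Myc replicate 12 (next 14.2).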

How the results depend on the processing

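Of the 28 called gene values, 12 kept their call under every alternative run; over all 514 alternatives of these values 406 kept the call, 108 lost it and 0 changed direction. The number of called members moved as follows. With the mouse as a replicate block it was 15 in place of 9 for CD26+ against CD26- CAFs, 1 in place of 0 for CD26+ against CD26- NFs and 1 in place of 0 for En1+ against double- NFs, and it stayed at 0 in the other comparisons within mice. Without the filter on low counts it was 6 in place of 11 in CD26- and 5 in place of 8 in CD26+ CAFs against NFs, where more genes were tested. Without the mice labelled 8x8 it was 7 and 5, and with only the groups compared 5 in CD26+ cells. With single libraries as units it was 2 in place of 0 for the tumor models in CD26- CAFs (Hoxb7 and Hoxc11) and 1 in place of 0 for the interaction of CD26 with tumor (Hoxb2). That run treats libraries of the same mouse and class as separate samples without a term for the mouse, so its calls do not rest on independent mice. Leaving out 1 mouse at a time gave 5 to 8 (CD26+ against CD26- CAFs), 6 to 11 (CD26- CAFs against NFs) and 4 to 9 (CD26+ CAFs against NFs), and 0 in the other comparisons. DESeq2 called 10, 11 and 10 members in these 3 comparisons, in that order. The causes of these shifts were not tested, and the shares of all genes called were not counted for the alternatives. Depth limits the 13 members that did not pass the filter and the NF levels of Hoxb8 and Hoxc11.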

Other observations

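Other transcription factors of regional identity were measured outside the Hox clusters. Of 17 listed, 11 were tested, and 4 were higher and 4 lower in CD26+ than in CD26- CAFs, where 39% of all genes were called. Tbx2 and Tbx3, T-box genes of the limb and mammary placode, had means of 33.1 ± 21.2 and 99.9 ± 43.3 CPM (SD, n = 10) in CD26- CAFs and 1.59 ± 1.02 and 7.97 ± 2.92 (n = 9) in CD26+ CAFs, with log2 differences of -4.37 ± 0.39 and -3.38 ± 0.30 (edgeR, adjusted p = 1.41e-08 and 1.39e-08). Tbx5, the forelimb T-box gene, was the reverse, with 1.58 ± 0.742 and 10.1 ± 2.39 CPM and a log2 difference of 2.80 ± 0.31 (edgeR, adjusted p = 2.11e-07). Tbx5 and Emx2 were also higher in CD26+ than in CD26- NFs, by 2.73 ± 0.53 and 1.56 ± 0.34 on the log2 scale (edgeR, adjusted p = 0.00305 and 0.00853). Of the 11 tested, 3 were higher and 0 lower in that NF comparison, where 2.67% and 1.49% of all genes were. Summed pericyte markers were 1863 to 10790 CPM in CD26- CAFs and 145.5 to 327 CPM in CD26+ CAFs. The part of pericyte RNA in the Tbx2 and Tbx3 values was not tested.

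Of 22 Polycomb and trithorax genes, which keep Hox genes silent or active, 1 rose and 12 fell in CD26- CAFs against NFs, and 0 rose and 11 fell in CD26+ CAFs, where 41.3% and 41.2% of all genes were called. Their median log2 fold changes were -0.43 and -0.49. Jarid2, a subunit of a repressive Polycomb complex, fell by 1.29 ± 0.26 and by 1.40 ± 0.27 on the log2 scale (edgeR, adjusted p = 0.000482 and 0.000376), and Cbx7 fell by 1.98 ± 0.36 and by 1.72 ± 0.38 (edgeR, adjusted p = 0.000194 and 0.00121). Phc2 was the gene that rose in CD26- CAFs, by 1.14 ± 0.20 on the log2 scale (edgeR, adjusted p = 0.000114). In CD26+ against CD26- NFs, 0 of the 22 were called by edgeR.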
